A study of Mus musculus with 2 samples.

Results

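The genes described here encode the secreted and membrane-bound matrix metalloproteases (Mmp), the Adamts proteases with their protease-free relatives (Adamtsl), and the inhibitors Timp1 to Timp4 and Reck. They were selected by gene name alone, as every non-control spot named Mmp, Timp, Adamts or Adamtsl with a number, or Reck. This gave 48 genes of the 28786 genes or transcripts on the array, measured by 81 probes on 90 spots: 21 Mmp, 17 Adamts and 5 Adamtsl genes, and 5 inhibitors. The samples were 2 subcutaneous tumours, each from 1000000 RMS3 cells injected in 200 µl of buffer into a C57BL/6J mouse labelled male, and taken after 2 weeks. The protocol calls the harvested tumours metastatic, while the other labels give the injection site. RMS3 is a mouse line that the labels call PRMS, and all samples come from this 1 line. Each tumour was hybridised to 1 single-colour Agilent array, and no control, normal tissue or cultured line was part of the set. The tumours form 1 group, so the comparisons are which of these genes were above background and how far tumour 2 lay from tumour 1. With 1 tumour on each side no p-value can be given, and a difference has no replicate check.

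Matrix metalloproteases are zinc enzymes made as inactive precursors. Together they cut most proteins of the extracellular matrix, and they are known for their part in tumour invasion and in muscle repair. Adamts enzymes cut proteoglycans, procollagens and microfibril proteins, while Adamtsl proteins lack the protease domain and associate with microfibrils. Timps are secreted proteins that block the active site, and Reck is a membrane-anchored glycoprotein that inhibits several metalloproteases. A tumour of this kind holds host stromal, vascular and immune cells beside the injected cells, and in such a bulk sample fewer cells of a type and less RNA per cell cannot be told apart.

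Many Mmp genes lie side by side in a cluster on mouse chromosome 9, and the AP-1 element, the binding site of Fos and Jun dimers, is a textbook feature of their promoters. The windows run from 100 bases before the transcription start to 20 bases from it on. They are shown for the cluster members in this set that held this element and, for contrast, for Mmp8, which did not. They come from RefSeq (GRCm38.p6), all on the plus strand, with TGAGTCA or its reverse complement TGACTCA in capitals.
Mmp13 (chr9:7272414-7272533): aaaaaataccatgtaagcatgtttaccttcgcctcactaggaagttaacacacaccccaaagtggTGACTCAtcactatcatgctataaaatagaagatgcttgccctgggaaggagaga
Mmp12, second of 2 starts (chr9:7347274-7347393): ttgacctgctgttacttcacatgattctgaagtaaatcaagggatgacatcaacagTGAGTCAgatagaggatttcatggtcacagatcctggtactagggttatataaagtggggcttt
Mmp3 (chr9:7445722-7445841): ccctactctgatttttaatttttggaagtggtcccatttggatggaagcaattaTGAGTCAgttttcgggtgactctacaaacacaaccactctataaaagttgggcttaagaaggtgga
Mmp1a (chr9:7464041-7464160): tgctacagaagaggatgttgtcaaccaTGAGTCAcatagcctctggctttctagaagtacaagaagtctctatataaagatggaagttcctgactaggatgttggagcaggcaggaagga
Mmp10 (chr9:7502242-7502361): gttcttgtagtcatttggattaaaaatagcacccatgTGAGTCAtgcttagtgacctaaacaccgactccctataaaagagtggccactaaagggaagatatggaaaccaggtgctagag
Mmp8 (chr9:7558329-7558448): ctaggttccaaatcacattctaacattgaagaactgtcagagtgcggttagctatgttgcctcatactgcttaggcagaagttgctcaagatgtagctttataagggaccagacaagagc
Mmp7, first of 2 starts (chr9:7691990-7692109): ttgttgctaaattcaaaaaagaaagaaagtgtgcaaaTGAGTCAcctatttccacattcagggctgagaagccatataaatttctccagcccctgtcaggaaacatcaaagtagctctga

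The 7-letter motif was sought on either strand in the full windows of 300 bases (250 before the start). It occurred in 6 of 10 windows of the 8 cluster members that belong to this set. In the other 25 genes of the set with an entry it occurred in 0 of 26 windows. Among all 32851 RefSeq windows of mouse genes 5.20% held it. Its first base lay 35 bases before the start in Mmp13, 44 in Mmp12, 46 in Mmp3, 63 in Mmp10 and Mmp7, and 73 in Mmp1a. A match of letters is a description of the window and not a measured binding site. Of the 6 cluster members with the motif, 5 (Mmp1a, Mmp3, Mmp10, Mmp12 and Mmp13) were well above background in both tumours and Mmp7 in neither. Of the 2 without it, Mmp8 was above background in both tumours and Mmp20, the enamel protease, in neither. For Mmp13 and Mmp8 this rests on spots near a flag. Over the array, 61.2% of all genes with a spot away from flags were well above background in both tumours. Whether the motif goes with expression was not tested.

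**Figure D1:**
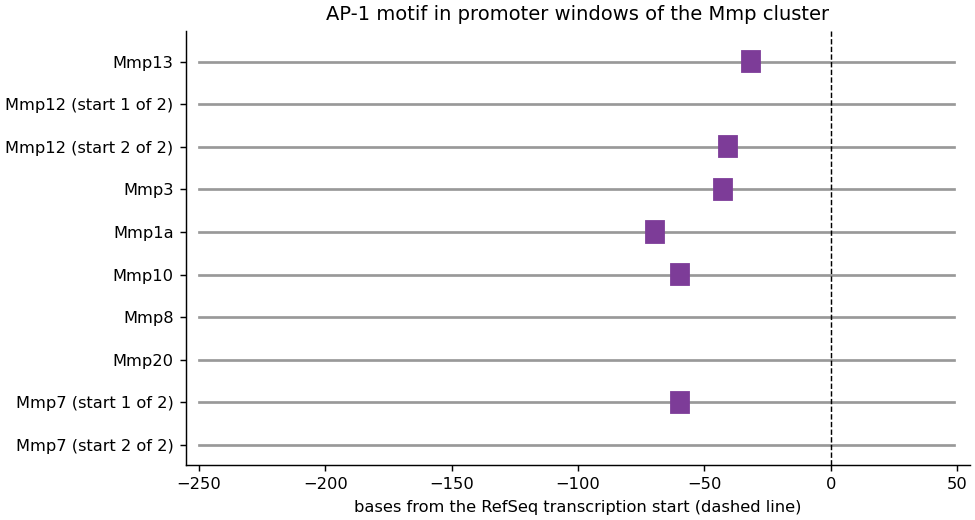
Position of the AP-1 motif (purple boxes, 7 bases) in the RefSeq promoter windows of the 8 Mmp genes of this set in the chromosome 9 cluster, in bases from the transcription start. In 6 of the 10 windows the motif lies within 73 bases before the start.

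The levels below are log2 signals relative to the 75th percentile of the array (a signal of 902 in tumour 2 and 995 in tumour 1), and they compare tumours, not genes, since each probe has its own brightness. The array of tumour 1 had 1128 spots flagged as outliers, against 69 on the array of tumour 2, and some spots beside flags had lost signal there, as the repeat spots of Mmp9 show. Values therefore rest on spots more than 2 rows and columns from such a flag. This held for 66 of the 90 spots, while 20 lay near a flag and 4 were flagged themselves. Away from flags the difference of a repeat spot had a standard deviation of 0.23 (log2, 1257 spots of 182 probes), which is a technical error within these arrays. The lowest level called well above background was -6.19 in tumour 2 and -5.78 in tumour 1. The skeletal muscle markers Des, Myog, Myh3 and Myh8 were detected in both tumours, and Tnnt2 was not. For genes outside the set, detected means well above background in both tumours. One called not detected may still be above background in 1 tumour.

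**Figure D2:**
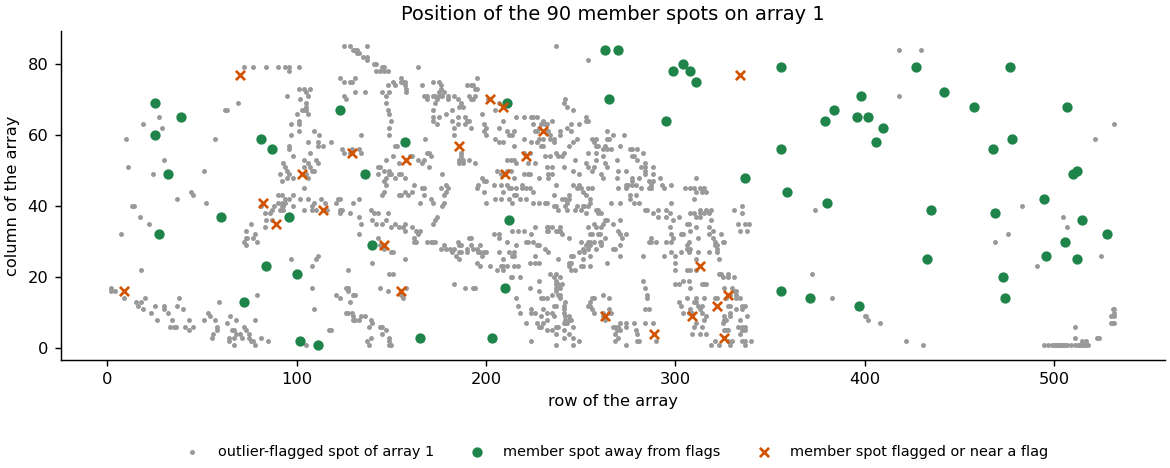
Row and column of the 90 spots on array 1, with its outlier-flagged spots in grey. The 66 spots away from flags are green, and crosses mark the 20 spots near a flag and the 4 flagged ones.

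One Mmp9 probe, printed 10 times, shows how far the array surface mattered. Mmp9 is the larger gelatinase, abundant in neutrophils and macrophages. Its 7 spots away from flags spanned -2.11 to -1.98 in tumour 2 and -2.37 to -2.11 in tumour 1. Spot by spot tumour 2 was higher in 7 of 7 cases, by 0.22 ± 0.09 (SD of the spots). The 3 spots near flags spanned -2.13 to -1.95 in tumour 2, close to the other spots, but -6.41 to -2.34 in tumour 1. Over all 10 spots and a second probe, which lies near a flag, Mmp9 would pass 2-fold towards tumour 2. The near-flag spot in row 309 differed by 4.42. Detected spots within 5 rows and columns of it (46) had a median difference of 0.80. That in row 129 differed by 1.27, but the 72 spots around it had a median of 0.07. A flat median around a spot thus does not vouch for that spot.

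**Figure D3:**
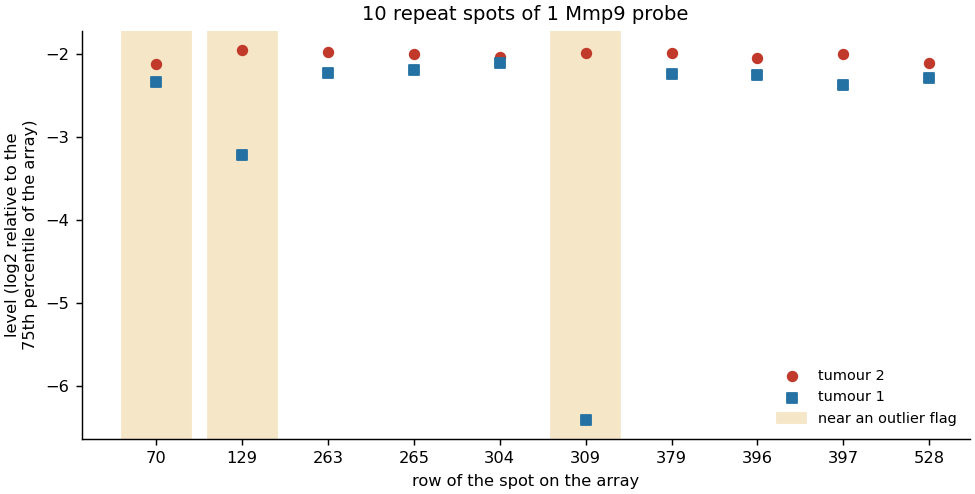
Level of each of the 10 repeat spots of the Mmp9 probe (log2 relative to the array's 75th percentile) by array row, tumour 2 as circles and tumour 1 as squares, with spots near a flag shaded. Away from shading the tumours lie within 0.37 of each other, and 2 shaded spots of tumour 1 fall to -3.22 and -6.41.

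Of the 48 genes, 30 were well above background in both tumours, 12 in neither, 0 in 1 alone, and 6 had no usable spot away from flags. The 30 make up 71.4% of the 42 genes that could be called, against 61.2% of all 22780 genes with a spot away from flags. Detection covered 11 of 18 callable Mmp, 13 of 17 Adamts, 3 of 4 Adamtsl genes and 3 of 3 inhibitors. The 12 not well above background in either tumour included Mmp7 (matrilysin), Mmp15 and Mmp24 (membrane types), Mmp20, Mmp21, Mmp25 and Mmp28. The others were Adamts12, Adamts13 (the protease of von Willebrand factor), Adamts18, Adamts19 and Adamtsl2. For Mmp28, Adamts12 and Adamts19 the call rests on 1 probe each, since their other probes lie near flags. There 1 Mmp28 probe measured -4.44 in tumour 2 against -7.89 in tumour 1, above background in tumour 2 alone. One Adamts12 probe near a flag was above background in both, with -2.02 in tumour 2 against -0.78 in tumour 1. With every unflagged spot allowed, 35 of the 48 were detected in both tumours. Away from flags, 33 genes passed a looser call in both tumours, a signal significantly above background, so some of the 12 did.

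The interstitial collagenases, which cut fibrillar collagen, were represented by Mmp1a, Mmp8 and Mmp13. Mmp1a measured 1.59 in tumour 2 against 1.41 in tumour 1, and its 2 probes differed by 0.12 and 0.23. The tumours thus lay close together for this gene on each of its probes. Mmp13 had its only spot near a flag, at 1.34 in tumour 2 against 3.49 in tumour 1, differing by -2.15. The 66 detected spots around it had a median difference of -0.18. Mmp8, the neutrophil collagenase, likewise had only a spot near a flag, at -0.22 in tumour 2 against -3.46 in tumour 1. The 49 spots around that one also leaned to tumour 2, with a median of 1.08, so no difference of Mmp8 is taken from it.

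The gelatinase Mmp2, a product of fibroblasts, measured 3.49 in tumour 2 against 3.59 in tumour 1, a gap of -0.10 within the error of a spot. Among the stromelysins, which cut proteoglycans and activate other Mmp precursors, Mmp3 measured 6.97 in tumour 2 against 7.27 in tumour 1. Mmp10 measured 4.99 in tumour 2 against 5.50 in tumour 1, differing by -0.51. Both stromelysins were thus lower in tumour 2, by less than 2-fold. Mmp11, a stromal metalloprotease that is activated inside the cell by furin, measured 0.59 in tumour 2 against 1.56 in tumour 1, differing by -0.97, which just misses 2-fold.

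Mmp12, the macrophage elastase, showed the largest gap among the Mmp genes away from flags. It lay at -2.03 in tumour 2 (signal 221) and -0.57 in tumour 1 (signal 669), a difference of -1.46 (2.75-fold higher in tumour 1). The 70 detected spots around it had a median difference of 0.01. Of 6 measured macrophage markers, 5 were detected in both tumours and Csf1r was not. Their differences ranged from -0.64 (Adgre1) to 0.22 (Cd68), with a median of -0.03, and 3 were lower and 2 higher in tumour 2. Their summed signal was 7.68 times the 75th percentile in tumour 2 and 7.92 times in tumour 1. That sum is weighted to the brightest marker, Cd14 (2.24 in tumour 2 and 2.27 in tumour 1). Whether macrophages take part in the Mmp12 difference was not tested.

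Of the membrane-anchored enzymes, Mmp14, the activator of the Mmp2 precursor, measured 2.14 in tumour 2 against 1.62 in tumour 1 on the probe away from flags, differing by 0.52. Its other probe was flagged, with 6.68 in tumour 2 against 0.93 in tumour 1, and is not used. The lipid-anchored Mmp17 measured -3.29 in tumour 2 against -3.52 in tumour 1, with a second probe not well above background in either. Mmp16 had both probes near flags, and 1 of them was above background in tumour 2 alone (-3.44 in tumour 2 against -7.98 in tumour 1). The remaining detected enzymes differed little. Mmp19 measured -1.38 in tumour 2 against -1.53 in tumour 1, and Mmp23 measured -2.38 in tumour 2 against -2.71 in tumour 1.

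**Figure D4:**
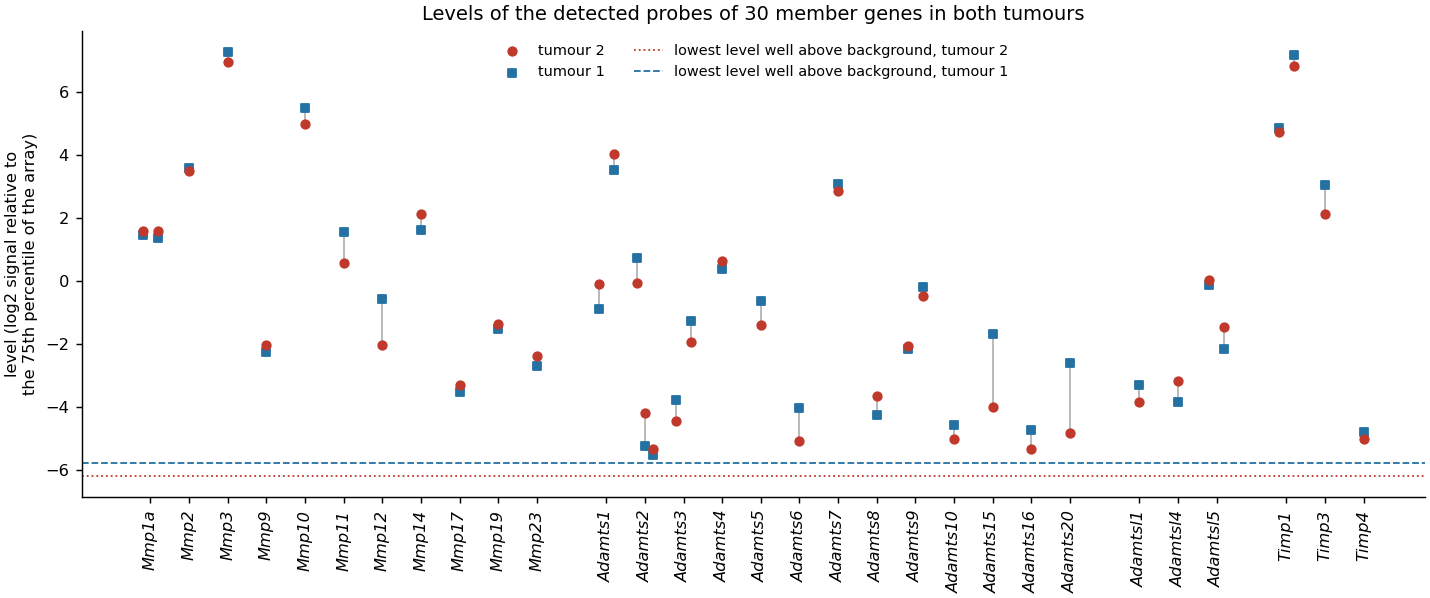
Levels of the detected probes of the 30 genes above background in both tumours (log2 signal relative to the array's 75th percentile), tumour 2 as circles and tumour 1 as squares, 1 pair of points per probe, with the lowest level called well above background as lines. Adamts15, Adamts20 and Mmp12 show the widest gaps, with the square of tumour 1 on top.

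The Adamts genes held the widest gaps of the set. Among the proteases of aggrecan and versican, Adamts15 lay at -4.01 in tumour 2 (signal 55.9) and -1.70 in tumour 1 (signal 307), a difference of -2.32 (4.98-fold). The 74 spots around it had a median difference of -0.06. Adamts20, known in mice from the belted coat mutant, measured -4.84 in tumour 2 against -2.60 in tumour 1 on 1 probe, differing by -2.23 (4.71-fold). Its other 2 probes were not well above background in either tumour and differed by -0.45 and -0.26. Under the looser call of a signal significantly above background, the gene's difference was -1.34. The value of -2.23 thus depends on a single spot. Around it 73 spots had a median difference of -0.08.

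The better known aggrecanases differed less and not in 1 direction. Adamts4 measured 0.64 in tumour 2 against 0.37 in tumour 1. Adamts5 measured -1.38 in tumour 2 against -0.63 in tumour 1, differing by -0.75. The first gene was thus slightly higher in tumour 2 and the second lower. Adamts1, an aggrecanase with antiangiogenic activity, was higher in tumour 2 on both probes, by 0.49 (4.04 in tumour 2 and 3.54 in tumour 1) and by 0.79 (-0.09 in tumour 2 and -0.88 in tumour 1). Adamts8 differed by 0.59 on the 1 of its 3 probes detected in both tumours. A second probe, well above background in tumour 2 alone, differed by 0.01 (-5.66 in tumour 2 and -5.67 in tumour 1). Under the looser call of a signal significantly above background, the difference of Adamts8 was 0.30. Adamts9, which cuts versican, had probes on either side of 0, at -0.29 and 0.10.

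Procollagen amino-propeptides are removed by Adamts2 and Adamts3. The 3 detected Adamts2 probes did not go together, with differences of -0.79, 0.21 and 1.06, so no direction is given for this gene. The first of these measured -0.05 in tumour 2 against 0.75 in tumour 1, and the last measured -4.19 in tumour 2 against -5.25 in tumour 1. For Adamts3 the 2 detected probes were both lower in tumour 2, each by 0.65, and another was at background.

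Adamts6, a protease of the microfibril-associated subgroup with Adamts10, measured -5.09 in tumour 2 against -4.03 in tumour 1, differing by -1.06 (2.09-fold). Its spot lies in the lower rows of the array, and its level in tumour 2 is close to background. The 63 spots around it had a median difference of 0.09. Adamts10 measured -5.01 in tumour 2 against -4.58 in tumour 1 on its probe away from flags, while a probe near a flag went the other way by 1.34, and with all unflagged spots the gene's difference was 0.26. Adamts16 measured -5.35 in tumour 2 against -4.74 in tumour 1, with a second probe at background. On the probes away from flags both were lower in tumour 2 by less than 2-fold. Adamts7, which cuts cartilage oligomeric matrix protein, measured 2.87 in tumour 2 against 3.09 in tumour 1.

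Of the protease-free relatives, Adamtsl4, which binds fibrillin, measured -3.19 in tumour 2 against -3.85 in tumour 1, differing by 0.66, which is the highest gene difference of the set, at a level close to background. Adamtsl5 was higher in tumour 2 on both detected probes, by 0.15 and 0.71. Adamtsl1 went the other way, at -3.83 in tumour 2 against -3.32 in tumour 1. Adamtsl3 had only a spot near a flag, at -5.08 in tumour 2 against -5.59 in tumour 1.

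Timp1, Timp3 and Timp4 were above background in both tumours. Timp1, induced in many inflamed and wounded tissues, had 2 usable probes, at 6.86 in tumour 2 against 7.18 in tumour 1 on the brighter one, and at 4.74 in tumour 2 against 4.87 in tumour 1 on the other. Timp3, the matrix-bound inhibitor that also blocks Adamts4 and Adamts5, measured 2.15 in tumour 2 against 3.04 in tumour 1, differing by -0.89 (1.86-fold), which is larger than the error of a spot. Timp4 measured -5.03 in tumour 2 against -4.81 in tumour 1. The gene differences of Timp1 (-0.22) and Timp4 (-0.21) were within the error of a repeat spot. The only spot of Timp2, the inhibitor that helps Mmp14 activate Mmp2, measured 6.13 in tumour 2, where it was flagged, against 5.87 in tumour 1. Reck had its only spot near a flag, at -3.96 in tumour 2 against -3.04 in tumour 1.

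Across the 30 detected genes 12 (40.0%) were higher in tumour 2 and 18 in tumour 1, beside 48.4% of all detected genes higher in tumour 2. Their median difference was -0.22, against -0.01 over all 13945 detected genes. These counts take the median probe of Adamts2 and Adamts9, whose probes went both ways. With the brightest probe of each gene 11 were higher in tumour 2 and 19 in tumour 1. A gap of 2-fold or more towards tumour 2 was seen for 0 of the 30, beside 2.59% of all genes. Towards tumour 1 it was seen for 4 (13.3%), Adamts6, Adamts15, Adamts20 and Mmp12, beside 3.87% of all genes. By family the medians were 0.16 for 11 Mmp, -0.43 for 13 Adamts, 0.43 for 3 Adamtsl and -0.22 for 3 Timp genes. The standard deviation of the differences was 0.76 over the 30 genes and 0.55 over all genes. Each of the 4 genes past 2-fold rests on 1 detected probe and 1 spot. Under the planned normexp background correction, which moved the median of all genes to 0.68, all 4 turned to tumour 2. Past 2-fold towards tumour 2 were then 13 of the 30, beside 6103 of all 13945 genes. With this correction 70.0% of the 30 genes were higher in tumour 2 instead of 40.0%. Refitted without 11 spots of high background on array 2, it gave 40.0% again, with Adamts6 under 2-fold, as it was after loess scaling. In the lower rows, which held 16 of the genes, Adamts6 alone was past 2-fold, because the spots of the other 3 lie higher up. None of the 4 is among the brighter 50% of detected probes. Without a detection filter Adamts20 was no longer past 2-fold.

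**Figure D5:**
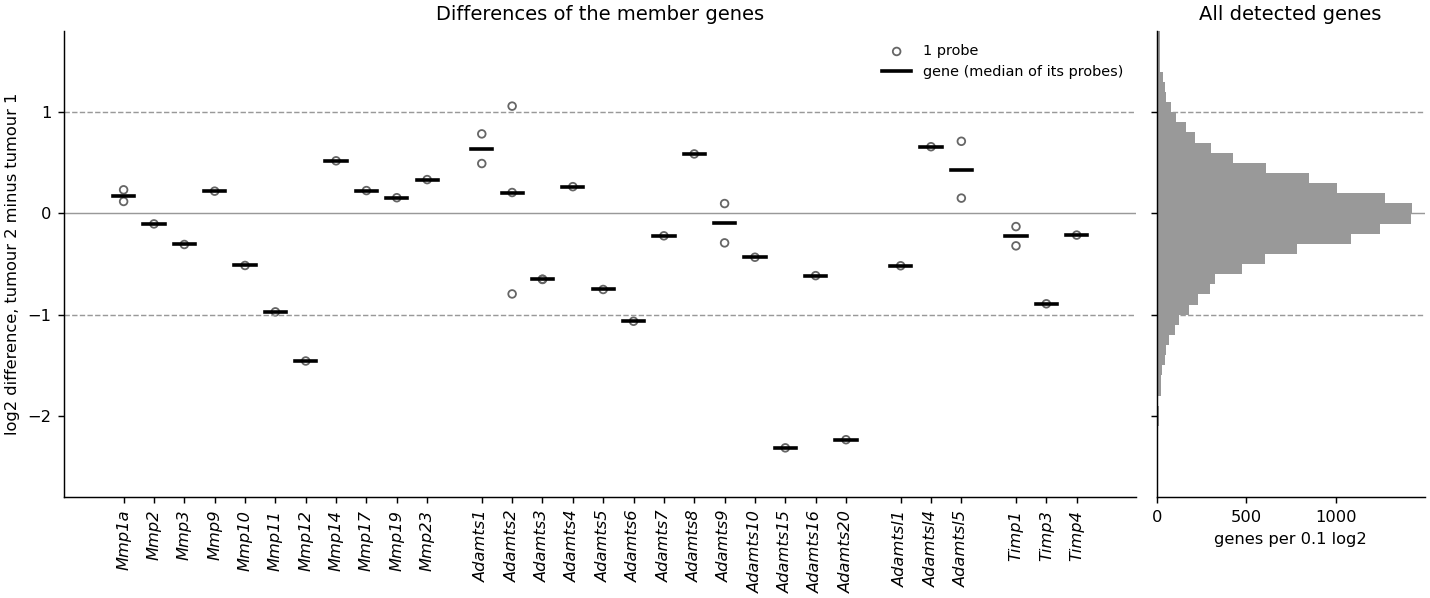
Log2 difference (tumour 2 minus tumour 1) of each detected gene (black line, median of its probes) and probe (circle), beside the distribution over all 13945 detected genes (right), whose most extreme members lie outside the axis. Dashed lines mark 2-fold. Adamts6, Adamts15, Adamts20 and Mmp12 lie below the lower line and no gene above the upper one.

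Genes that act around these proteases were followed with lists of their activators, transcription factors, substrates and relatives. Of 8 detected genes of activation and pericellular control, 6 were higher in tumour 2 (48.4% of all detected genes were), with a median difference of 0.64. Plau, the urokinase that generates plasmin and thereby activates Mmp precursors, measured 0.68 in tumour 2 against -0.58 in tumour 1, differing by 1.26 (2.39-fold). Its receptor Plaur measured 4.22 in tumour 2 against 3.65 in tumour 1, differing by 0.58.

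All 9 measured transcription factors of Mmp promoters were detected, and 7 were higher in tumour 2 (48.4% of all detected genes were), with a median difference of 0.30 and no gene past 2-fold. Fos measured 3.04 in tumour 2 against 2.73 in tumour 1, and its relative Fosl2 measured 1.21 in tumour 2 against 1.03 in tumour 1. The cluster members with the AP-1 motif had differences of 0.18 (Mmp1a), -0.31 (Mmp3), -0.51 (Mmp10) and -1.46 (Mmp12) away from flags. Of these 4, 1 was thus higher in tumour 2.

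Of 7 detected membrane Adam proteases 4 were higher in tumour 2, near the share of all detected genes (48.4%). Adam9 differed by -0.08, Adam10 by 0.18 and Adam15 by 1.24 (2.37-fold). Procollagen and matrix processing genes had a median difference of 0.05 over 7 genes, with Bmp1, the carboxy-propeptide protease, at -0.21 and its enhancer Pcolce at 0.31. Substrates of the Adamts and Mmp enzymes had a median of 0.13 over 14 genes, none past 2-fold. Among them Acan, the cartilage proteoglycan aggrecan, differed by 0.35 and the microfibril gene Fbn1 by -0.42.

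Markers of the cell types that could carry these transcripts differed as well. The counts below stand beside 48.4% of all detected genes higher in tumour 2. All 4 detected skeletal muscle markers were higher in tumour 2 (median difference 1.02, Des at 1.24 and Myh3 at 1.07). Their summed signal was 9.11 times the 75th percentile in tumour 2 and 4.69 times in tumour 1. Myh8 was the brightest of them (level 2.99 in tumour 2 and 2.02 in tumour 1). Each sum in this paragraph is weighted to its brightest probes, so it does not measure the content of a cell type. All 4 measured fibroblast markers were lower in tumour 2, with a median of -0.78, Dcn at -1.12 and Mfap5 at -1.95, and a summed signal of 8.12 times the 75th percentile in tumour 2 and 12.4 times in tumour 1. All 6 endothelial markers were lower in tumour 2 (median -0.35, summed signal 6.04 in tumour 2 and 7.72 in tumour 1). All 5 detected neutrophil markers were higher in tumour 2 (median 0.47), with Ngp not detected in both tumours. Their summed signal was 89.3 in tumour 2 and 68.5 in tumour 1, with S100a9 the brightest (level 6.17 in tumour 2 and 5.81 in tumour 1). Mural cell markers went both ways (median 0.14 over 4 genes), as did 3 cartilage markers (median 0.35) with Matn1, Matn3 and Comp not detected. Of 3 detected bone cell markers Ibsp differed by -1.62. Of 6 keratinocyte markers only Krt5 and Krt14 were detected in both tumours, higher in tumour 2 by 3.55 and 3.64. Whether these cells take part in the differences of the proteases and inhibitors was not tested.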

How the data were processed

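The deposited intensity values come from Agilent Feature Extraction (9.1.3.1 in the file headers, while the submitters' processing notes name version 8). Per the file headers they were made with spatial and multiplicative detrending and surrogates for low values switched on. Per the labels' protocols 1.0 µg of Trizol-extracted RNA was labelled with Cy3. The deposited value table equalled the processed signal at all 45018 spots of both arrays within a relative tolerance of 1e-06 (column medians 67.5 in tumour 2 and 63.3 in tumour 1). The genome build is not given in the sources used here.

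Levels are log2 of the processed signal minus the 75th percentile over the 31299 non-control spots used. Spots flagged as non-uniform or population outliers, and spots within 2 rows and columns of such a flag on array 1 or of a local background above 100 on array 2, were left out. Repeat spots were averaged. Detection of a probe asked for 50% or more of its spots well above background, and a gene's difference is the median over its detected probes. The share of non-control spots well above background was 66.1% in tumour 2 and 62.3% in tumour 1. Precision is limited by having 2 arrays, which share a slide. Of the spots, 65 matched a RefSeq accession (GRCm38.p6) and none changed its name. No test was run. Every gene of the set could be named, while others were named only as the first 2 detected members of a list, or when past 2-fold or in the account of a marker list. One list member that this rule allows is not reported here. The genes, lists and settings were chosen with earlier results of these data known. Alternatives were other spots, background corrections (normexp, offset 50), scalings (loess span 0.3), detection calls and probe rules. The procedure was run on simulated data, with both arrays drawn from array 2 with spot noise and the same detection. These data held no lost signal of array 1, so they checked the calculation only. Python 3.11.15, R 4.3.3 and limma 3.58.1 were used.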

Additional observations from a re-analysis of the deposited data

How the results depend on the processing

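The number of genes detected in both tumours was 30, and 16 in the lower rows, where fewer spots count. It was 30 to 30 when either tumour was left out and judged by the other alone. The count at least 2-fold higher in tumour 2 was 0 of 30, beside 361 of all 13945 genes. It was 2 of 35 with all unflagged spots (Mmp8 and Mmp9), beside 866 of 16812. With no detection filter it was 1 of 42 (Mmp25), beside 913 of 22780. Under normexp with offset 50 it was 13 of 30, beside 6103 of 13945. The count at least 2-fold higher in tumour 1 was 4 of 30, beside 539 of all 13945 genes. It was 9 of 35 with all unflagged spots (adding Adamts12, Mmp11, Mmp13, Reck and Timp3), beside 1083 of 16812. Without scaling it was 6 of 30, beside 807 of 13945. In the lower rows it was 1 of 16, beside 269 of 8042. Under that normexp fit it was 7 of 30, beside 680 of 13945. Among the brighter 50% of probes, which hold none of the 4, it was 0 of 14, beside 84 of 7534. The median difference was -0.22 and became 0.82 under that normexp fit, and lay between -0.36 and -0.12 under the other alternatives. Under the same fit Adamts15 turned to 0.95, Adamts20 to 1.78, Adamts6 to 2.53 and Mmp12 to 0.12. The fit depends on 11 spots of high background on array 2, and without them all 4 stayed higher in tumour 1. The median over all genes shifted to -0.18 with all unflagged spots and to -0.16 without scaling or without a detection filter, and these counts hold that shift. Of the differences of single genes under alternatives, 309 moved by less than the error of a repeat spot and 47 by more. Another 4, of genes past 2-fold, changed sign. Part of the 309 was fixed in advance. A change of the scale alone shifts every gene by the same small amount, and a gene with 1 detected probe cannot change with the brightest probe. In 18 cases the sign turned, 13 of them under that normexp fit, 3 with all unflagged spots (Adamts10, Mmp1a and Mmp19), and Adamts2 with the brightest probe and with the brighter 50% of probes. No paired analysis was possible because the 2 tumours form 1 group. The dim genes Adamts6, Adamts8, Adamts10, Adamts16, Adamtsl4 and Timp4 lie within 2 log2 units of the lowest level called in tumour 1, which limits their differences. Adamts2 does so by the median of its probes, while its brightest probe lay at -0.05 in tumour 2 and 0.75 in tumour 1. In tumour 2 Adamts20 (-4.84) also lies within 2 log2 units of the lowest level called there (-6.19), which limits its difference.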
